A study of Homo sapiens with 6 samples.

Results

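Genes of the epithelial-to-mesenchymal transition (EMT) were measured in MDA-MB-231 cells with and without khellin. The set comprised 10 genes listed by name: the transcription factors SNAI1, SNAI2, ZEB1, ZEB2, TWIST1 and TWIST2, and the mesenchymal markers VIM, FN1, CDH2 and CDH11. Of the 10, 8 have a row among the 27776 genes of the count table, and 7 of these 8 passed the filter on low counts that left 15865 genes for testing. TWIST1 and TWIST2 were not analysed here, and CDH2, with 2 to 12 reads per library, did not pass the filter.

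MDA-MB-231 is a human triple-negative breast cancer line, and khellin is a furanochromone from the plant Ammi visnaga. Polyadenylated RNA was sequenced from 3 control and 3 khellin libraries of this line. No dose, exposure time or vehicle was given in the labels used here, and the series' design text names a docetaxel-resistant group where the sample titles say control, so that the drug history of the control cells is not settled. Although the titles speak of biological replicates, separate cultures are mentioned nowhere in the sources used here, and p-values therefore measure the spread between these libraries.

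EMT is the programme by which epithelial cells lose cell-cell junctions and acquire a motile, spindle-shaped form. SNAIL and ZEB proteins are zinc finger repressors, and TWIST proteins are basic helix-loop-helix factors. SNAIL and ZEB proteins bind E-box sequences in promoters such as that of CDH1, the E-cadherin gene. Vimentin filaments, fibronectin, N-cadherin and cadherin 11 are the classical products of cells in the mesenchymal state. MDA-MB-231 is widely used as a line that already stands in this state.

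Total counts per library ranged from 28631578 to 30956610, so that 3 reads corresponded to 0.0977 to 0.103 CPM (each count relative to the library total, adjusted by edgeR's TMM factors). The labelled cell type was checked against marker genes. CDH1 had 0 reads in each control library and 1, 2 and 2 reads in the khellin libraries, under the floor of 3 reads, and PGR, the progesterone receptor gene, had 4 to 17 reads per library. ESR1, the estrogen receptor gene, had 5 to 13 reads per library. Other epithelial markers were present: KRT8 had 3990 to 5334, KRT18 2185 to 2676 and EPCAM 97 to 143 reads per library. The 3 control libraries differed among themselves along transcript length. The median log2 difference of control replicate 1 minus control replicate 3 went from -0.10 in the fifth of genes with the shortest exon union to 0.12 in the fifth with the longest, which holds ZEB1, ZEB2, FN1 and CDH11. Of all tested genes 19.4% were called in edgeR's quasi-likelihood test (adjusted p under 0.05), 10.6% as higher and 8.82% as lower with khellin.

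With khellin, FN1, CDH11 and SNAI2 rose, and no gene of the set fell. These are 3 of the 7 tested, beside the 10.6% of all tested genes called higher. FN1 and CDH11 rose 1.55-fold and 1.56-fold, SNAI2 rose 1.19-fold, and SNAI1, ZEB1, ZEB2 and VIM did not pass the test. The median log2 fold change of the 7 tested genes was 0.26, against 0.00 over all tested genes. The libraries of the groups did not overlap for 5 of the 7, all higher with khellin. Of all tested genes, 38.2% showed no overlap, 20.2% with khellin higher.

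**Figure D1:**
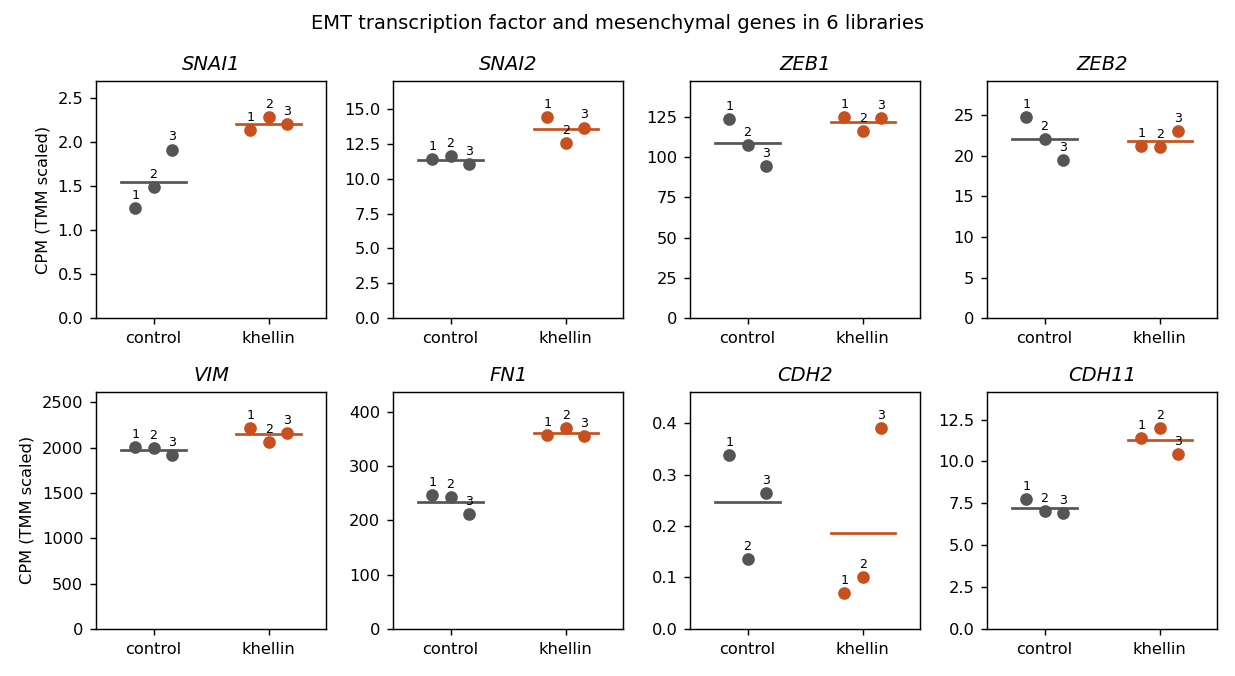
CPM (TMM scaled, linear axes from 0) of the 8 genes with a row in the count table, with the 3 control libraries in grey, the 3 khellin libraries in orange, replicate numbers above the points and group means as bars. The khellin points of SNAI1, SNAI2, VIM, FN1 and CDH11 lie above all control points of the same gene, while those of ZEB1, ZEB2 and CDH2 overlap them.

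The level of these genes spanned a wide range. Per kb of the longest principal transcript in GENCODE 29, VIM stood at 923 ± 22.9 CPM per kb in control libraries (SD, n = 3), a level higher than that of 99.8% of tested genes when averaged over all 6 libraries. FN1 followed with 29.5 ± 2.42 and ZEB1 with 20.01 ± 2.68 CPM per kb, and these neighbours did not overlap. SNAI2 stood at 4.68 ± 0.118 and ZEB2 at 2.32 ± 0.278 CPM per kb. CDH11, at 1.06 ± 0.0675, and SNAI1, at 0.922 ± 0.201 CPM per kb, overlapped in control libraries and could not be ordered. CDH2 came last with 0.0568 ± 0.0236 CPM per kb.

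In khellin libraries the order of the levels was the same, and none of the neighbours overlapped. FN1 stood at 45.7 ± 1.01 and ZEB1 at 22.4 ± 0.864 CPM per kb, so that the ratio of FN1 to ZEB1 was 2.04, against 1.48 in control libraries. CDH11, at 1.65 ± 0.114, lay above SNAI1, at 1.31 ± 0.0441 CPM per kb. The order depends on the length used. Per kb of exon union, FN1 (13.5 ± 1.10) and ZEB1 (12.5 ± 1.68 CPM per kb) overlapped in control libraries, with a ratio of 1.07, while in khellin libraries they did not overlap and had a ratio of 1.48. On that scale SNAI1 (0.922 ± 0.201) and ZEB2 (0.881 ± 0.106 CPM per kb) overlapped in control libraries and could not be ordered, and CDH11 (0.541 ± 0.0346) lay below both. In khellin libraries, SNAI1 lay above ZEB2, and ZEB2 and CDH11 overlapped.

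**Figure D2:**
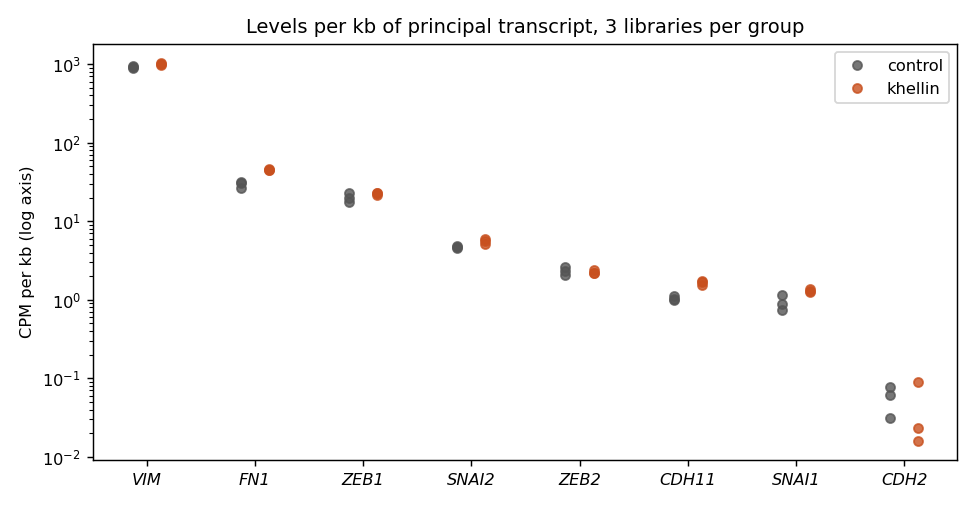
CPM per kb of the longest principal transcript (log axis) for the 8 genes, ordered by control mean, with each control library as a grey point and each khellin library as an orange point. The control means run from 923 CPM per kb for VIM to 0.0568 CPM per kb for CDH2, and the khellin points of FN1 and CDH11 lie above the control points.

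SNAI2, which encodes the repressor SLUG, was the more abundant of the SNAIL genes. The gene (ENSG00000019549) lies on the minus strand of chromosome 8 from 48917598 to 48921740 (GRCh38, inferred from the coordinates of the table). It had 337, 342 and 334 reads in control and 418, 374 and 420 reads in khellin libraries, or 11.4, 11.6 and 11.05 CPM against 14.4, 12.6 and 13.7 CPM. All khellin libraries were higher, and khellin replicate 2 lay nearest to the controls. The log2 fold change was 0.26 (SE 0.0762, 95% confidence interval 0.08 to 0.43) with an adjusted p of 0.0432 in edgeR's quasi-likelihood test. This call was lost when any library but khellin replicate 2 was left out, with an adjusted p of up to 0.167, and under DESeq2 (adjusted p = 0.101).

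SNAI1, which encodes SNAIL, the founding member of the family, was measured near the bottom of the range. The gene (ENSG00000124216, plus strand of chromosome 20, 49982980 to 49988886) had 37, 44 and 58 reads in control and 62, 68 and 68 reads in khellin libraries. These correspond to 1.25, 1.495 and 1.92 CPM in control and 2.14, 2.29 and 2.21 CPM in khellin libraries. The groups did not overlap, and control replicate 3 lay nearest to the khellin libraries. The log2 fold change of 0.51 (SE 0.168, 95% confidence interval 0.13 to 0.88) did not pass the test (edgeR adjusted p = 0.0636). Its estimate was larger than that of SNAI2, but so was its error, and without control replicate 3 it passed with a log2 fold change of 0.69 (edgeR adjusted p = 0.0158).

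The log2 ratio of SNAI2 to SNAI1 reads within a library, which does not depend on scaling between libraries, was 2.88 ± 0.332 in control and 2.60 ± 0.147 in khellin libraries (SD, n = 3). The groups overlapped, and p was 0.3 in a two-sided exact permutation test (n = 3 in each group). With 3 libraries on each side, such a test cannot go below 0.1. The third SNAIL gene, SNAI3, is not in the set and had a log2 fold change of 0.20 (edgeR adjusted p = 0.48); it was named after its value was seen.

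ZEB1, which encodes a repressor with clusters of zinc fingers at both ends, was the most abundant of the factors. The gene (ENSG00000148516, plus strand of chromosome 10, 31318495 to 31529814) had 123.7, 107.2 and 94.6 CPM in control libraries and 124.6, 116.2 and 123.9 CPM in khellin libraries. Control replicate 1 stood among the khellin libraries, and control replicates 2 and 3 below them. The log2 fold change was 0.16 (SE 0.0880, 95% confidence interval -0.04 to 0.36), which did not pass the test (edgeR adjusted p = 0.235). Without control replicate 1, it was 0.27 and passed (edgeR adjusted p = 0.0083), and without control replicate 3 it was 0.07 (edgeR adjusted p = 0.448).

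ZEB2, the paralogue of ZEB1, had 24.8, 22.1 and 19.5 CPM in control libraries and 21.2, 21.1 and 23.1 CPM in khellin libraries. The gene (ENSG00000169554) lies on the minus strand of chromosome 2 from 144364364 to 144521057. The khellin libraries lay within the range of the controls, with a log2 fold change of -0.02 (95% confidence interval -0.22 to 0.19, edgeR adjusted p = 0.915). The sign of this value was not fixed: with library size only it was 0.03, and without control replicate 1 it was 0.07.

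The ZEB genes shared the same order among control libraries, with replicate 1 highest and replicate 3 lowest. Their log2 ratio had an SD of 0.0221 over the control libraries. This ratio of ZEB2 to ZEB1 reads lay between -2.32 and -2.28 in control libraries and between -2.55 and -2.42 in khellin libraries. The ratio was lower in 3 of 3 khellin libraries, by a mean difference of -0.18, and a two-sided exact permutation test gave p = 0.1 (n = 3 per group), the smallest value possible, or 0.2 when adjusted over the 4 ratios that had enough reads, of 7 planned. Leaving out each library in turn kept the difference between -0.21 and -0.15.

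ZEB1-AS1 and VIM-AS1 are antisense genes that overlap ZEB1 and VIM. ZEB1-AS1 went from 6.58 ± 0.889 to 5.78 ± 0.247 CPM (SD, n = 3) and VIM-AS1 from 7.26 ± 0.880 to 8.14 ± 0.531 CPM, and neither passed the test (edgeR adjusted p of 0.277 and 0.305). ZEB2-AS1 had 0 or 1 read per library. No source used here says whether counting took account of strand, so reads of a gene and of its antisense partner cannot be told apart, but the antisense counts were small beside those of ZEB1 and VIM.

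SNAI1, SNAI2, ZEB1 and ZEB2 carry the label zf-C2H2, the classical zinc finger family, in the annotation of the count table. Of 547 tested genes with this label, 40 rose and 15 fell, and their median log2 fold change was 0.05. Among all tested genes 10.6% were called higher and 8.82% lower, larger shares than among the genes with this label. SNAI2 is 1 of the 40.

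Fibronectin, the product of FN1, is a matrix glycoprotein that cells assemble into fibrils through integrins. FN1 (ENSG00000115414, minus strand of chromosome 2, 215360440 to 215436073) had 7287, 7124 and 6384 reads in control and 10336, 11002 and 10928 reads in khellin libraries. This corresponds to 246.1, 242.1 and 211.2 CPM against 356.3, 369.9 and 355.7 CPM. The khellin libraries lay close together and far above the controls, of which replicate 3 was lowest. The log2 fold change was 0.63 (SE 0.0596, 95% confidence interval 0.50 to 0.76) with an adjusted p of 0.000151 in edgeR's quasi-likelihood test. The call was kept under each of 15 alternative settings, with log2 fold changes from 0.55 to 0.67.

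The 250 bases before the RefSeq start of FN1 are shown because this gene had the clearest change of the set. They come from the RefSeq promoter table (GRCh38.p14, chr2:215436069-215436318, minus strand, 5′ to 3′). The capitals mark the motif TGACGTCA, the cyclic AMP response element, whose first base lies 183 bases before the start.
FN1: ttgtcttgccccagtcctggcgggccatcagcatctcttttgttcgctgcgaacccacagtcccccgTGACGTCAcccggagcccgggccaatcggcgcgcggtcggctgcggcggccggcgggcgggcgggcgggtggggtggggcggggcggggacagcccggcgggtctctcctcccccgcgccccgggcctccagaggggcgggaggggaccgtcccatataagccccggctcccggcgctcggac
This motif, which reads the same on both strands, occurs in 1.65% of the 35116 windows of the same length. Neither TGANTCA, the AP-1 motif, found in 6.57% of windows, nor the E-box letters CAGGTG or CACCTG, which are reverse complements of each other and are found in 17.5% of windows, occur in these bases of FN1.

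CDH11 encodes cadherin 11, a classical type II cadherin of mesenchymal cells. The gene (ENSG00000140937, minus strand of chromosome 16, 64943753 to 65126112) had 230, 207 and 209 reads in control and 331, 357 and 321 reads in khellin libraries. On the CPM scale these are 7.77, 7.03 and 6.91 against 11.4, 12.0 and 10.4. The groups were well separated, with a log2 fold change of 0.64 (SE 0.0875, 95% confidence interval 0.44 to 0.84, edgeR adjusted p = 0.00111). The call was kept under each of 15 alternative settings, with values from 0.57 to 0.69.

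CDH2 encodes N-cadherin, the cadherin that replaces E-cadherin in the classical cadherin switch. It had 10, 4 and 8 reads in control and 2, 3 and 12 reads in khellin libraries, and the groups overlapped. Khellin replicate 1, at 2 reads, was under the floor of 3 reads. A difference was not detectable at this depth: in a fit with no filter on low counts, the log2 fold change was -0.37 (SE 0.536, edgeR adjusted p = 0.73). CDH11 was therefore the cadherin of the set with usable counts, and a CDH2 to CDH1 ratio was not computed, since neither gene reached a mean of 10 reads.

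VIM encodes vimentin, the intermediate filament protein of mesenchymal cells. The gene (ENSG00000026025, plus strand of chromosome 10, 17228241 to 17237593) had 2006, 1992 and 1915 CPM in control and 2217, 2059 and 2162 CPM in khellin libraries. The groups did not overlap, but khellin replicate 2 lay close to control replicate 1. The log2 fold change of 0.12 (SE 0.0423, 95% confidence interval 0.03 to 0.22) did not pass the test (edgeR adjusted p = 0.0723).

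The ratio of FN1 to VIM within libraries restates the difference between their fold changes above, because it is formed from the same counts. The log2 ratio of FN1 to VIM reads moved from -3.08 ± 0.0853 in control to -2.57 ± 0.0844 in khellin libraries (SD, n = 3), a difference of 0.51 with no overlap (two-sided exact permutation p = 0.1, n = 3 per group; 0.2 adjusted over the 4 ratios). The log2 ratio of VIM to KRT18, a keratin gene of simple epithelia, was 4.63 ± 0.122 in control libraries. With khellin it was 4.63 ± 0.0823, and the groups overlapped (exact permutation p = 1, n = 3 each).

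**Figure D3:**
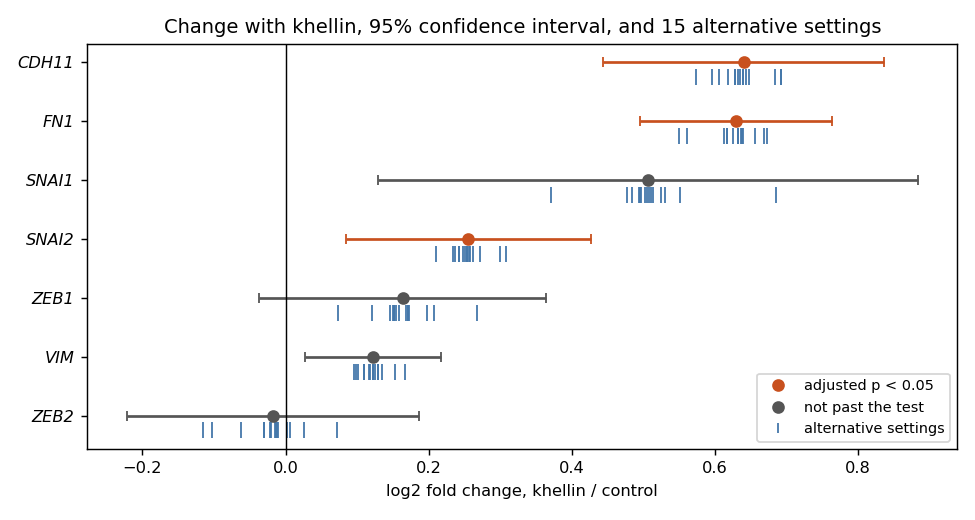
Log2 fold change of khellin over control for the 7 tested genes from the edgeR fit, as points with 95% confidence intervals, orange where the adjusted p was under 0.05, and below each point 1 tick for each of 15 alternative settings. The ticks of FN1 and CDH11 stay between 0.55 and 0.69, those of SNAI1 run from 0.37 to 0.69, and those of ZEB2 fall on both sides of 0.

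Among 16 other transcription factors linked to EMT, 11 were tested. Of these, 3 rose and 2 fell (median log2 fold change -0.03), beside 10.6% and 8.82% of all tested genes. FOXQ1, a forkhead factor, rose from 25.7 ± 2.64 to 37.5 ± 1.32 CPM (SD, n = 3) by 0.55 on the log2 scale (SE 0.0791), and RUNX2, the osteoblast runt factor, rose by 0.41 (SE 0.0649). ETS1, the founding ETS factor, fell from 390.8 ± 21.3 to 272.2 ± 10.1 CPM, with -0.52 as its log2 fold change (SE 0.0513). SOX4, an HMG box factor, rose by 0.49 (SE 0.0875) and HMGA2, an architectural chromatin protein, fell by 0.33 (SE 0.0755); these 2 were named after their values were seen.

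TWIST proteins act as dimers with E proteins, and ID proteins antagonise such dimers because they lack a DNA-binding region. Of 9 genes of this group 8 were tested. Of these, 4 rose and none fell (median log2 fold change 0.55), beside 10.6% and 8.82% of all tested genes. ID1 rose from 78.0 ± 5.51 to 143.1 ± 2.23 CPM (SD, n = 3), a log2 fold change of 0.88 (SE 0.0566, edgeR adjusted p = 1.7e-05). ID3 rose by 0.51 (SE 0.0763), and ID4, at 0.761 ± 0.192 CPM in control libraries, rose by 1.004 (SE 0.227). Leaving out khellin replicate 1 or 2 took the adjusted p of ID4 to at most 0.0578 and ended the call. The E protein gene TCF3, named after its value was seen, rose by 0.17 (SE 0.0480).

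Of 21 tested genes of corepressors and chromatin enzymes that work with SNAIL and ZEB proteins, 4 rose and none fell, beside 19.4% of all tested genes called in either direction and 10.6% called higher. The median log2 fold change of the 21 was -0.01. EP300, a histone acetyltransferase, rose by 0.31 (SE 0.0659), SIN3A, a scaffold of deacetylase complexes, by 0.18 (SE 0.0474) and EZH2, the methyltransferase of Polycomb complex 2, by 0.16 (SE 0.0414). All 3 lost the call when certain libraries were left out: EP300 without khellin replicate 2 or 3 (edgeR adjusted p of up to 0.052), SIN3A without control replicate 2 or any khellin library (up to 0.112) and EZH2 without the same libraries (up to 0.128). SIN3A lost it with the length correction too (edgeR adjusted p = 0.133), and EP300 and EZH2 kept it there. SIN3A and EZH2 also lost it under DESeq2 (adjusted p of 0.0599 and 0.0625).

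None of 21 tested genes of kinases, ubiquitin ligases and deubiquitinases that set the stability of SNAIL, TWIST1 and ZEB1 proteins passed edgeR's quasi-likelihood test (median log2 fold change -0.03). Of all tested genes, 19.4% passed it. GSK3B, the kinase that marks SNAIL for degradation, had the smallest p, with a log2 fold change of -0.15 (SE 0.0461, edgeR adjusted p = 0.0505), and passed without control replicate 3 (edgeR adjusted p = 0.0154), with RLE factors (0.0359) and with a correction for transcript length (0.0124). PSMD14, a deubiquitinase of the proteasome, stood at -0.10 (SE 0.0422) and MDM2, a ubiquitin ligase gene, at 0.24 (SE 0.110). MDM2 passed without control replicate 1 (log2 fold change 0.35, edgeR adjusted p = 0.0131).

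Some epithelial genes that are repressed in EMT rose. Of 25 listed, 18 were tested, with 5 higher, 1 lower and 12 that missed the threshold (median log2 fold change 0.09). Among all tested genes 10.6% were called higher and 8.82% lower. JUP, which encodes the junction protein plakoglobin, rose from 18.2 ± 0.748 to 35.6 ± 1.71 CPM (SD, n = 3), a log2 fold change of 0.96 (SE 0.0655, edgeR adjusted p = 2.1e-05). KRT8, a keratin of simple epithelia, rose by 0.32 (SE 0.0467). MAL2, PKP3 and CLDN7, named after their values were seen, rose by 0.47, 0.38 and 0.51. CLDN7, a tight junction claudin gene, went from 9.93 ± 1.35 to 14.2 ± 0.422 CPM, and it overlaps ELP5 on the opposite strand over 38 bases. KRT8 likewise overlaps KRT18 on the opposite strand, over 1084 bases. EPCAM, an adhesion molecule of epithelia, had 132, 136 and 136 reads in control and 126, 97 and 143 in khellin libraries and did not pass the test (log2 fold change -0.15, edgeR adjusted p = 0.488). CDH1, GRHL2, OVOL1 and OVOL2 had under 3 reads in every library, so no change could be measured for E-cadherin and for these epithelial transcription factors.

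RefSeq windows were matched for 11 of the 25 epithelial genes, and 7 of the 11 hold CAGGTG or CACCTG, the letters bound by SNAIL and ZEB proteins, in at least 1 window of 250 bases before a start. By window, 8 of the 15 matched hold them, beside 17.5% of all windows. The list was made of genes repressed in EMT, so this share is no independent test of the letters. A share per gene over all genes was not computed. Of those 7 genes 5 were tested, and 2, CLDN7 and JUP, rose, beside 10.6% of all tested genes. KRT8, which also rose, has a window without these letters. In the EMT set, windows were matched for 6 genes, and the E-box letters occur in 2 of the 7 windows of ZEB1 and in none of the other 5 genes. The other 3 tested epithelial genes with these letters, DSP, OCLN and TJP3, did not pass the test, with log2 fold changes of 0.03, 0.01 and 0.09. CRB3 and RAB25, with at most 7 reads per library, were not tested. CLDN7 and JUP are shown because they were the E-box genes that rose, and ZEB1 because it is the gene of the EMT set with the letters. For each the window with the most E-boxes is given, with the E-boxes in capitals (RefSeq, GRCh38.p14, 5′ to 3′ on the strand of the gene). They lie at chr17:7262479-7262728 (minus strand), chr17:41785977-41786226 (minus strand) and chr10:31318966-31319215 (plus strand).
CLDN7: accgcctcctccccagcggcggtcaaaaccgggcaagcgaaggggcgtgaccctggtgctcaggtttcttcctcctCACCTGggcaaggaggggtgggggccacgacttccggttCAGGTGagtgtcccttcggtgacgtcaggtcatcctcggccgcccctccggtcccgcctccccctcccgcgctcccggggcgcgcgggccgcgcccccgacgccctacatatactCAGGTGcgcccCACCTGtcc
JUP: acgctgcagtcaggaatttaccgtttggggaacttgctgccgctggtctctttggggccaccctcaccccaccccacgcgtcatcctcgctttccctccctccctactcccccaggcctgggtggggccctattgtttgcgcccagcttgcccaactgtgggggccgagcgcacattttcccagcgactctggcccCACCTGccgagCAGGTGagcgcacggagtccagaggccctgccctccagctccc
ZEB1: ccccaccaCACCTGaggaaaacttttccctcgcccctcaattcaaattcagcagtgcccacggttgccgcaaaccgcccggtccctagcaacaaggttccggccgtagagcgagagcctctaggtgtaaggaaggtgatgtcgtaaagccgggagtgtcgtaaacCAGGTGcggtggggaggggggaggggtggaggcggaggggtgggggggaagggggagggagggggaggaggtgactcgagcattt
The E-boxes of CLDN7 begin 174, 135, 20 and 9 bases before the start, those of JUP 54 and 43 bases, and those of ZEB1 242 and 85 bases before it. A match of letters is a description of the sequence and says nothing about binding in these cells.

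Other mesenchymal genes moved in both directions. Of 28 listed, 22 were tested, with 7 that rose, 3 that fell and 12 that missed the threshold (median log2 fold change 0.03). Among all tested genes 10.6% were called higher and 8.82% lower. The collagen gene COL5A1 rose from 60.7 ± 1.55 to 93.7 ± 1.09 CPM (SD, n = 3) by 0.63 (SE 0.0464) on the log2 scale. COL1A1, another collagen gene, went from 6.08 ± 0.323 to 11.01 ± 0.303 CPM and rose by 0.86 (SE 0.0793). S100A4, a calcium-binding protein gene also called FSP1 and named after its value was seen, rose by 0.95 (SE 0.0998). CD44, 1 of the 3 that fell and also named after its value was seen, had a log2 fold change of -0.29 (SE 0.0391). The summed CPM of the 28 genes lay between 5557 and 5619 in control and between 4587 and 4753 in khellin libraries. SPARC, a matrix glycoprotein gene, and AXL, a receptor kinase gene, both likewise named after their values were seen, stood at -0.07 and -0.06 without passing the test.

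In bulk RNA, a change in the share of cells of a type and a change in RNA per cell cannot be told apart. Fibroblast markers moved with the group at a low level: the summed CPM of the 8 with a row, of 9 listed, lay between 6.45 and 7.14 in control and between 11.8 and 12.9 in khellin libraries. Only 2 of the 8 passed the filter on low counts, COL1A1, which gave most of this sum, and PDGFRB. Both rose, beside 10.6% of all tested genes, and both are already counted among the other mesenchymal genes above. The defining markers COL1A2 and PDGFRA had at most 2 reads and LUM and COL3A1 at most 7 reads per library, and DCN was not analysed here. Endothelial markers summed to 6.42 to 7.70 CPM in control and 7.75 to 8.14 CPM in khellin libraries, with CDH5 under 3 reads in every library. Of 3 tested, 1 was called higher, beside 10.6% of all tested genes: PECAM1, an adhesion molecule of endothelium, rose by 0.62 (SE 0.158). Blood cell markers summed to 1.66 to 2.05 CPM in control and 2.28 to 3.26 CPM in khellin libraries. CD14, a monocyte coreceptor and the 1 blood marker tested, rose by 0.57 (SE 0.166), beside 10.6% of all tested genes called higher. Luminal epithelial markers summed to between 270.2 and 298.0 CPM in control and between 328.2 and 333.2 CPM in khellin libraries. Of 7 tested, 1, KRT8, passed the test as higher, beside 10.6% of all tested genes. The part of these marker levels in the changes of FN1, CDH11 and SNAI2 was not tested.

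Genes around the products of the set were examined last. Of 17 other classical cadherins 4 were tested and 1 passed, CDH4, beside 19.4% of all tested genes. CDH4, which encodes R-cadherin, rose from 85.1 ± 2.05 to 117 ± 4.95 CPM (SD, n = 3), a log2 fold change of 0.46 (SE 0.0491). CDH24 stood at -0.07 (SE 0.0619) and CDH18, at 13 to 30 reads per library, at 0.47 (SE 0.264), without passing the test. Of 6 tested catenins, which link cadherins to actin, only JUP, described above, passed, beside 19.4% of all tested genes. CTNNB1, the beta-catenin gene, stood at 0.12 (SE 0.0420, edgeR adjusted p = 0.0662) and CTNNA1 at 0.09 (SE 0.0425).

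Genes of fibronectin receptors and matrix assembly divided, with 6 of 15 tested rising and 5 falling (median log2 fold change 0.12). Among all tested genes 10.6% were called higher and 8.82% lower. TNC, the tenascin C gene, rose from 39.4 ± 1.01 to 63.1 ± 1.07 CPM (SD, n = 3) by 0.68 (SE 0.0525), and FBLN1, a fibulin that binds fibronectin, by 1.01 (SE 0.0950). The integrin gene ITGA3 fell from 1246 ± 49.4 to 902.1 ± 28.2 CPM, with a log2 fold change of -0.47 (SE 0.0446). ITGA5, the alpha subunit of the main fibronectin receptor, fell by 0.16 (SE 0.0478, edgeR adjusted p = 0.0425) and ITGB1, its beta subunit, stood at -0.03 (edgeR adjusted p = 0.747); both were named after their values were seen.

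Of 9 tested partners and linkers of vimentin filaments, 4 rose and none fell (median log2 fold change 0.17), beside 10.6% and 8.82% of all tested genes. NES, which encodes nestin, a filament protein that copolymerises with vimentin, rose from 14.0 ± 1.28 to 25.9 ± 0.643 CPM (SD, n = 3), a log2 fold change of 0.88 (SE 0.0775, edgeR adjusted p = 9.4e-05). LMNB1, a nuclear lamin gene, and SYNM, the synemin gene, rose by 0.30 (SE 0.0451) and 0.31 (SE 0.0568). Some of the lists share genes: JUP stands among the epithelial genes and the catenins, and CDH1 among the epithelial genes and the cadherins. COL1A1 and PDGFRB stand among the other mesenchymal genes and the fibroblast markers, and KRT8 among the epithelial genes and the luminal markers. The calls of JUP, COL1A1, PDGFRB and KRT8 are therefore counted more than once.

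**Figure D4:**
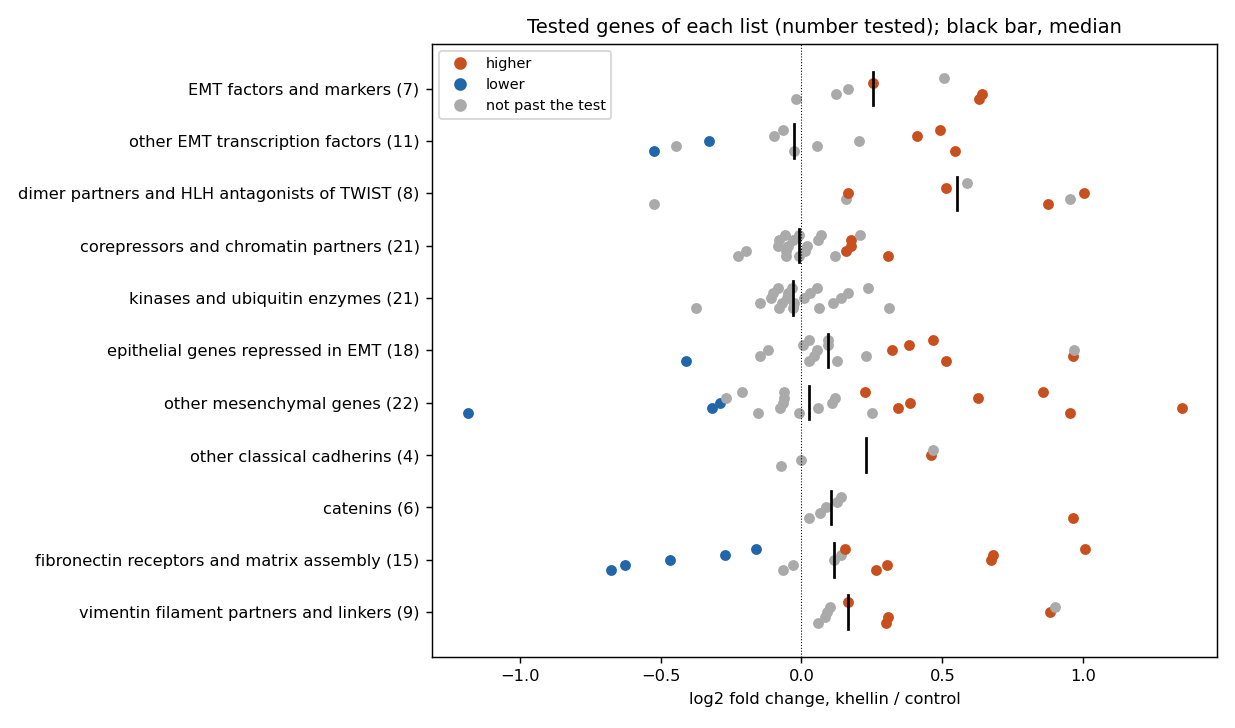
Log2 fold change of khellin over control for each tested gene of the EMT set and of 10 lists of related genes, orange where higher and blue where lower at an adjusted p under 0.05, with the median as a black bar and the number tested in brackets. The medians of the lists lie between -0.03 and 0.55.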

How the data were processed

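Raw read counts per gene in 6 libraries were deposited by the authors as a single table; fastp, HISAT2 and HTSeq are named in the submitters' processing notes. Build, annotation and strand use in counting are not given in the sources used here. Of 25378 gene identifiers shared with GENCODE 29, 25332 had overlapping coordinates, so GRCh38 was inferred. Groups were taken from sample titles. Members and gene lists were chosen with earlier results of these data known.

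Genes were kept with filterByExpr, scaled with TMM factors and compared in edgeR's quasi-likelihood framework (robust, group only), two-sided, with Benjamini-Hochberg adjustment over all tested genes. The standard error is the absolute log2 fold change divided by the square root of F. CPM per kb uses the longest APPRIS principal transcript. Ratios were compared with exact permutation tests after adding 0.5 reads to each count. No 2 libraries of a group agreed within sampling noise (chi-square per degree of freedom of at least 1.91). Named genes were the members, the 3 of smallest p in each list, CDH1, EPCAM and overlapping antisense genes; others are marked. A few genes picked by this rule are left unreported here. Alternatives were other scalings and filters, DESeq2, limma-voom, a replicate block, leaving out each library, a stricter threshold, a ratio offset of 2 reads and, added after seeing the data, a length correction (mgcv). The count tests were tested on simulated data. Versions were mgcv 1.9.3, DESeq2 1.42.0, limma 3.58.1, edgeR 4.0.16 and R 4.3.3.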

Additional observations from a re-analysis of the deposited data

How the results depend on the processing

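FN1 and CDH11 kept their direction and call in all 15 alternative fits. Of all genes, 1681 were higher and 1399 lower; the counts ranged from 919 to 1990 and from 643 to 1722 when each library was left out, and were 808 and 608 at an adjusted p under 0.01. Calls that were higher made up 54.6% of all calls, 69.1% with library size only and 43.1% with the length correction. Of the EMT set 3 genes were called, 2 to 3 with a library left out and 5 with library size only, where SNAI1 (log2 fold change 0.55) and VIM (0.17) passed. SNAI1 also passed with the length correction (0.50), and ranged from 0.37 to 0.69 with a library left out. SNAI2 did not pass with RLE factors (0.24), DESeq2 (0.24) or no filter on low counts (0.25), and ranged from 0.21 to 0.31 with a library left out. ZEB1 ranged from 0.0727 to 0.27 and ZEB2 from -0.10 to 0.0714 with a library left out, ZEB2 also turning to 0.0259 with library size only. The VIM to KRT18 log2 ratio differed by -0.0049 between groups and ranged from -0.0609 to 0.0597. The causes were not tested.

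The deviations of same-numbered libraries had correlations of 0.27, 0.06 and -0.23, and not every library correlated best with its own number. These values did not show that the numbers pair the libraries. With 3 libraries per group and a drift along transcript length among the controls, they cannot exclude a pairing either. With the replicate block 1533 genes were higher and 1282 lower; SNAI2 stood at 0.25 (edgeR adjusted p = 0.0703) and SIN3A at 0.18 (edgeR adjusted p = 0.0528). Depth limits CDH2 and CDH1, with at most 12 reads per library, and the precision of SNAI1.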

Other observations

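MIR34AHG, the host transcript of the microRNA miR-34a, which is known to target SNAI1 transcripts, had 7, 8 and 10 reads in control and 23, 25 and 22 reads in khellin libraries. The log2 fold change stood at 1.47 (SE 0.253), a rise from 0.280 ± 0.0477 to 0.783 ± 0.0627 CPM (SD, n = 3). The gene passed the filter on low counts only through its khellin libraries, so no p-value is given for it. This gene was named after its values were seen, and the mature microRNA was not measured in these libraries of polyadenylated RNA.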
